A study of Mus musculus with 16 samples.

Results

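Described here are 9 genes of the pentose phosphate pathway and of cytosolic NADPH supply in mouse liver, G6pdx, H6pd, Pgls, Pgd, Taldo1, Tkt, Rpia, Me1 and Idh1, picked by gene name from the 33730 genes of the deposited count table. The liver came from C57BL/6 mice in 4 groups of 4 libraries. The WT DMSO group is wild type and received DMSO at 1 µL/g, and the WT CDDO-Me group is wild type and received CDDO-Me at 3 mg/kg in DMSO. The KO CDDO-Me group is Nrf2 null and received the same dose, and the KO untreated group is Nrf2 null and labelled untreated, with no vehicle named. Injections were intraperitoneal, 24 h and 1 h before a partial hepatectomy, and all tissue is the day 0 liver removed at that operation. The labels give no age, sex or form of the null allele. The design text counts 4 animals per group, but no label ties a library to its own animal, so the p-values measure the spread between libraries.

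In the oxidative branch of the pathway, glucose 6-phosphate is oxidised to ribulose 5-phosphate and NADP is reduced to NADPH. The reversible branch then interconverts sugar phosphates, giving ribose for nucleotides or returning carbon to glycolysis. NADPH pays for fatty acid and sterol synthesis in hepatocytes and keeps glutathione and thioredoxin reduced. NRF2, encoded by Nfe2l2, is a transcription factor that induces antioxidant and detoxification genes, several pentose phosphate enzymes among them, and CDDO-Me (bardoxolone methyl) is a triterpenoid that activates it. The comparisons ask how the drug altered these genes in wild-type liver, how it did so without NRF2, and how genotype altered them with and without the drug.

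The upstream sequence is shown for the 4 genes on which the results below turn, Tkt, Pgd, G6pdx and Me1. All 9 genes matched RefSeq promoters (GRCm38.p6), 12 in total because Pgd, Me1 and Idh1 have a second start. Windows of 250 bases before each start were searched on both strands for 5 motifs. These were the antioxidant response element core TGACNNNGC, which NRF2 is known to bind, the E-box CACGTG, the sterol element TCACNCCAC, the GC box GGGCGG and the CCAAT box CCAAT. Capitals mark the matches, and each run reads 5′ to 3′ on the gene's strand, with bases annotated as UTR left out apart from the short stretch of G6pdx.
Tkt, chr14:30548881-30549130, plus strand: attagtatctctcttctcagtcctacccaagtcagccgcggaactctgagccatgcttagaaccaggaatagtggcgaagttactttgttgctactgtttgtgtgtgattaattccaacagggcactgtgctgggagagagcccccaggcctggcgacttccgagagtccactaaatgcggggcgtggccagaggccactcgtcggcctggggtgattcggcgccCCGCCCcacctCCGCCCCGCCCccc
Pgd, chr4:149166708-149166955, minus strand: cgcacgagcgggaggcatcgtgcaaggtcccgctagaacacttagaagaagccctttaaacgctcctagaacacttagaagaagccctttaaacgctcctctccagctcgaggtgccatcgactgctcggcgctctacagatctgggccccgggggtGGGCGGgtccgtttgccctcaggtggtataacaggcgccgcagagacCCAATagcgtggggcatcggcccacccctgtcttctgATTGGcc
Me1, chr9:86695954-86696164, minus strand: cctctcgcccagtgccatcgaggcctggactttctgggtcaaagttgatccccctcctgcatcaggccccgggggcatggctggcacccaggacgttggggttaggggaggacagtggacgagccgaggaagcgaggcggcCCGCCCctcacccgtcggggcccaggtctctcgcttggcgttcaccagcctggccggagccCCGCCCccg
G6pdx, chrX:74428919-74428948, minus strand: gaggcgggtcaGCTCAGTCAaagcacacgc
In the runs printed here Tkt held 3 GC boxes, 2 of them overlapping, Me1 held 2, and Pgd held 1 GC box and 2 CCAAT boxes. Over the whole window Me1 held 3 GC boxes and G6pdx held 1. The 30 bases of G6pdx surround the antioxidant element core, whose match begins 57 bases before the start. That core occurred in 1 of the 12 promoters of these genes and in 10.16% of 32851 promoters. Counted over whole windows, the GC box occurred in 9 of 12 against 32.74%, the CCAAT box in 5 of 12 against 33.85%, the E-box in 0 of 12 against 6.02% and the sterol element in 0 of 12 against 1.05%. A match is only a match of letters in this window, and no binding was measured.

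Counts summed to between 12002317 and 99284626 per library, WT CDDO-Me 1 being the deepest. The 9 genes together took a share of counts between 0.137 and 0.158% with WT DMSO, between 0.166 and 0.216% with WT CDDO-Me, between 0.0992 and 0.128% for KO untreated, and between 0.115 and 0.133% for KO CDDO-Me. Their single counts ran from 42 (Rpia) to 110936 (H6pd). Nfe2l2 had CPM (counts scaled to a common library size) between 42.8 and 74.9 for WT DMSO, between 36.6 and 45.5 for WT CDDO-Me, between 19.9 and 51.7 for KO untreated, and between 15.7 and 21.0 for KO CDDO-Me. The library labelled KO untreated 1, at 51.7, lay within the wild-type range, while its group held the NRF2 target Nqo1 at 0.434 to 1.19 CPM against 3.21 to 4.22 in WT DMSO. In WT DMSO 1 and 2 and KO untreated 1 and 2, genes annotated as sense intronic or unclassified (TEC) took 0.673 to 0.967% of counts. In the other 12 libraries the share was 0.186 to 0.407%. The former 4 are called intron-rich below, though reads within introns of other genes were not measured. WT DMSO 4 and WT CDDO-Me 1 carried less ribosomal RNA, 0.00595 and 0.0105%, than the other wild-type libraries, at 0.173% or more. All 8 KO libraries were low as well, at 0.00108 to 0.0368%, so the low share covered every KO library and these 2 wild-type ones. The column headers number these 2 after the KO libraries, and the other wild-type libraries before them. What the header numbers stand for is not given. Where leaving out the intron-rich or the low ribosomal RNA libraries ended a call, the value without them is given.

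Among the hepatocyte markers fixed for the label check (8 genes, Alb and Apoa1 among them), none was at 0 and the sum was 48354 to 116115 CPM over all libraries. Summed levels of 8 Kupffer cell markers were between 196 and 261 CPM with WT DMSO, between 433 and 587 with WT CDDO-Me, between 242 and 429 for KO untreated, and between 339 and 515 for KO CDDO-Me, with none at 0. Those of 8 stellate cell markers were 228 to 393, 457 to 520, 264 to 683 and 266 to 399 CPM in the same order, and those of 8 endothelial markers 288 to 428, 443 to 493, 409.9 to 518 and 310 to 462 CPM. Neutrophil markers summed to at most 41.1 CPM and lymphocyte markers to at most 4.65 CPM in any library. In bulk liver, fewer cells of a type and less RNA per cell cannot be told apart.

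Per kilobase of gene length, the authors' FPKM put H6pd, Idh1 and Me1 first in wild type and G6pdx, the entry enzyme of the pathway, last or next to last in every group. In WT DMSO the order of mean FPKM was H6pd at 130.1 ± 19.8 (SD, n = 4 here and below), Idh1 at 111 ± 17.9, Me1 at 70.7 ± 23.2, Taldo1 at 27.9 ± 3.43 and Tkt at 14.8 ± 0.725. Pgls followed at 5.85 ± 0.823, Pgd at 5.77 ± 1.42, Rpia at 1.55 ± 1.04 and G6pdx at 1.43 ± 0.190. The ranges of H6pd and Idh1, Idh1 and Me1, Pgls and Pgd, and Rpia and G6pdx overlapped, so those neighbours are not ordered beyond their spread. H6pd makes the endoplasmic reticulum form of the first enzyme, and within single libraries its FPKM was 68.1 to 124 times that of G6pdx in WT DMSO.

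The order of the means differed between groups. Idh1 stood above H6pd in all 4 libraries of both KO groups, at 119 ± 21.7 against 95.8 ± 13.3 FPKM in KO untreated, where the ranges overlapped, and at 142 ± 15.8 against 104 ± 4.72 FPKM in KO CDDO-Me, where they did not. Pgd stood above Pgls in all 4 WT CDDO-Me libraries, at 10.3 ± 2.32 against 6.59 ± 0.428 FPKM. Me1 dropped from the third place to the fourth in both KO groups, at 28.7 ± 5.44 FPKM untreated and 23.6 ± 7.59 with the drug, and its range there overlapped that of Taldo1. G6pdx stood above Rpia in WT CDDO-Me and KO CDDO-Me, in all 4 libraries of each and with ranges apart, and in 3 of 4 libraries of KO untreated, where the ranges overlapped. Tkt stayed behind Taldo1 in every library, closest in WT CDDO-Me at 28.3 ± 3.54 against 34.2 ± 5.90 FPKM. Orders between genes rest on the 1 length per gene behind the FPKM, 6533 bases for Tkt, 6447 for Pgd, 3770 for Pgls and 2171 for Taldo1. In mean CPM, which ignores length, Tkt stood above Taldo1 in every group, at 206 against 82.8 in WT CDDO-Me and 73.3 against 68.7 in KO CDDO-Me. Whether these lengths suit the transcripts of this liver was not tested.

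**Figure D1:**
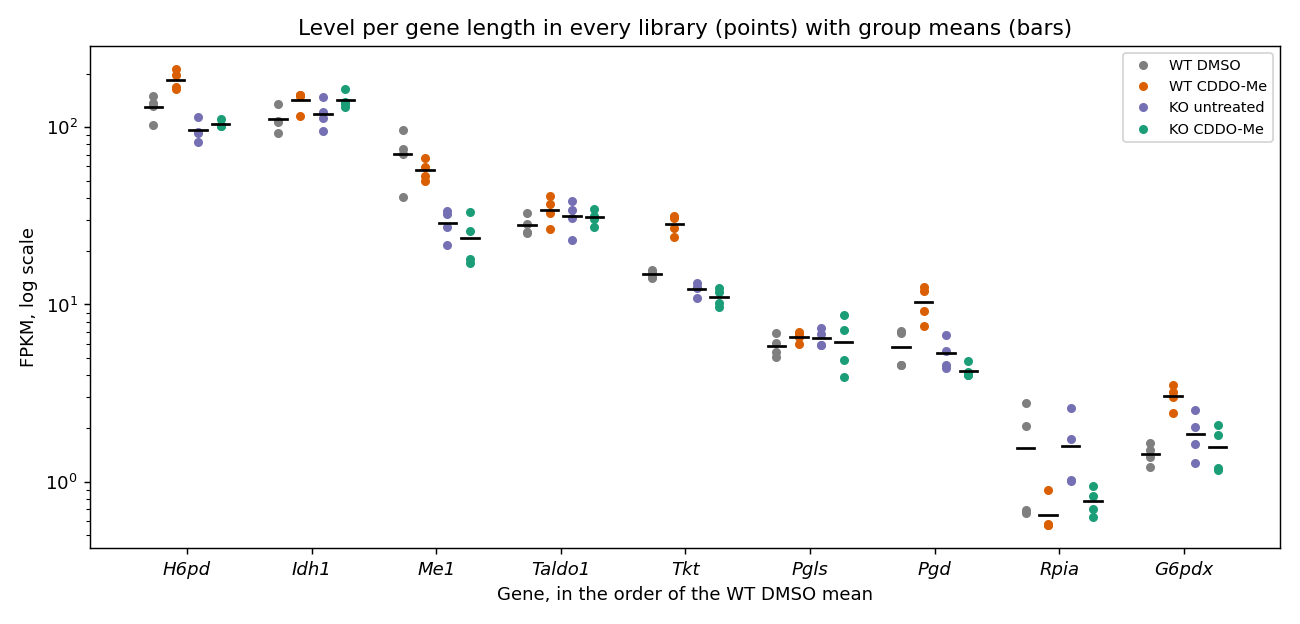
Levels of the 9 genes per kilobase, as the authors' FPKM on a log axis, by group (points are libraries, 4 per group, and bars are group means). H6pd, Idh1 and Me1 lead in both wild-type groups, Me1 falls to the level of Taldo1 in both KO groups, and G6pdx and Rpia are the lowest throughout.

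In wild-type liver the drug raised 3 of the 9 genes, Tkt, Pgd and G6pdx, about 2-fold, and lowered none at an adjusted p under 0.05. Over all 16206 genes tested, 0.555% rose and 0.173% fell. The median log2 fold change of the 9 was 0.47, against -0.02 over all genes tested.

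G6pdx encodes glucose-6-phosphate dehydrogenase, the entry and rate-limiting enzyme of the oxidative branch. The WT DMSO libraries 1 to 4 held 3.96, 4.23, 4.82 and 4.59 CPM, and the WT CDDO-Me libraries 1 to 4 held 9.29, 11.2, 10.9 and 10.1 CPM. All drug-treated wild-type libraries lay above all vehicle libraries, as did 4.36% of all genes tested. The change was 2.35-fold (log2 1.23 ± 0.27, SE) with an edgeR adjusted p of 0.0493, close to the threshold. It missed the threshold in 12 of the 16 fits that each left out 1 library, with adjusted p up to 0.154 (without WT CDDO-Me 2) and a log2 fold change of 1.18 to 1.29. It also missed it without the 4 intron-rich libraries (1.11 ± 0.28, adjusted p = 0.0892) and without WT DMSO 4 and WT CDDO-Me 1 (1.31 ± 0.33, adjusted p = 0.0909). In KO untreated 1 to 4 G6pdx was at 2.79, 5.07, 5.14 and 8.10 CPM, and in KO CDDO-Me 1 to 4 at 3.64, 3.69, 6.95 and 5.60 CPM. The KO groups overlapped fully, and within KO untreated the highest library was 2.90-fold the lowest.

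G6pdx lies on X at 74409483 to 74429194 (GRCm38, GENCODE M21, minus strand), and Ikbkg, an NF-kappa-B signalling gene, spans all 19712 bases of it on the other strand. The library kit is directional, but no source used here gives the strand setting of the counting, so reads of the pair may have been split between them. Ikbkg stood far higher, with means of 173 CPM for WT DMSO, 211 for WT CDDO-Me, 103 for KO untreated and 105 for KO CDDO-Me. With the drug in wild type its log2 difference of 0.29 ± 0.14 did not pass (edgeR adjusted p = 0.334). Between the genotypes under the drug its log2 fold change was -1.00, lower in KO (adjusted p = 0.000409). What Ikbkg reads contributed to the G6pdx counts was not tested. Kupffer cell markers also rose with the drug in wild type, 4 of 8 by the same test, against 0.555% of all genes tested. Between the genotypes under the drug 4 of the 8 had a negative estimate (median log2 fold change 0.01), and edgeR called 1, Marco, lower in KO. For the difference of the drug responses all 8 were positive (median 0.58), and edgeR called 1, Marco. Those markers summed to 433 to 587 CPM in WT CDDO-Me, with G6pdx at 9.29 to 11.2 CPM. In WT DMSO they summed to 196 to 261 CPM, with G6pdx at 3.96 to 4.82 CPM. KO untreated libraries held 242 to 429 CPM of them and G6pdx at 2.79 to 8.10 CPM. KO CDDO-Me libraries held 339 to 515 CPM of them and G6pdx at 3.64 to 6.95 CPM.

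Markers of 2 other cell types had estimates of the same sign as G6pdx, Pgd and Tkt, though edgeR called none of them. Other tools called single markers, DESeq2 Oit3 in all 3 contrasts, Eng under the drug and Col1a1 for the difference, and limma Dcn under the drug. For stellate cells all 8 markers had a positive estimate with the drug in wild type (median log2 fold change 0.63) and a negative one between the genotypes under the drug (median -0.55). For the difference of the drug responses all 8 were positive (median 1.04), 7 of them with an unadjusted p under 0.05. For endothelial cells 7 of 8 were positive with the drug in wild type (median 0.49), all 8 were negative between the genotypes under the drug (median -0.31) and all 8 were positive for the difference (median 0.66), 3 of them with an unadjusted p under 0.05. The part of Kupffer, stellate and endothelial cells in the results for G6pdx, Pgd and Tkt was not tested.

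Pgls encodes 6-phosphogluconolactonase, the middle step of the oxidative branch. Vehicle libraries 1 to 4 of the wild type measured 22.2, 19.1, 23.2 and 23.5 CPM and drug libraries 1 to 4 measured 24.3, 27.0, 29.2 and 30.4 CPM. The wild-type groups did not overlap, as for 4.36% of all genes tested. The log2 fold change of 0.33 ± 0.22 did not pass (edgeR adjusted p = 0.454, 95% interval -0.14 to 0.80). KO CDDO-Me split into 32.5 and 27.9 CPM in libraries 1 and 2 and 15.9 and 18.1 CPM in libraries 3 and 4, and KO untreated ran from 15.9 to 28.5 CPM.

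Pgd encodes 6-phosphogluconate dehydrogenase, which makes the second NADPH of the oxidative branch. The vehicle libraries WT DMSO 1 to 4 held 38.9, 37.2, 33.3 and 36.3 CPM, and the treated libraries WT CDDO-Me 1 to 4 held 72.1, 83.0, 70.1 and 65.2 CPM. The groups did not overlap, as for 4.36% of all genes tested, and the change was 1.99-fold (log2 0.99 ± 0.19, edgeR adjusted p = 0.0182). Leaving out WT CDDO-Me 2 gave the highest adjusted p, 0.0787, and leaving out WT DMSO 4 with WT CDDO-Me 1 gave 0.0624 at a log2 fold change of 1.00. KO untreated 1 to 4 held 20.2, 28.8, 30.2 and 45.0 CPM and KO CDDO-Me 1 to 4 held 25.4, 26.5, 33.2 and 26.6 CPM. Both KO groups lay below every drug-treated wild-type library. For KO CDDO-Me alone that held for 9.82% of all genes tested, and the share for both KO groups was not counted. Within libraries the Pgd to Pgls ratio of FPKM lay between 0.842 and 1.14 for WT DMSO and between 1.25 and 1.8 for WT CDDO-Me, against 0.671 to 0.924 for KO untreated and 0.457 to 1.22 for KO CDDO-Me.

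H6pd encodes hexose-6-phosphate dehydrogenase, which carries out the first oxidative steps inside the endoplasmic reticulum. WT DMSO 1 to 4 were at 458, 599.7, 779 and 968 CPM, and WT CDDO-Me 1 to 4 were at 1056, 909, 1209 and 1149 CPM. The drug groups overlapped through WT DMSO 4, and the log2 fold change of 0.62 ± 0.24 did not pass (edgeR adjusted p = 0.246). Without the 4 intron-rich libraries named above it was 0.28 ± 0.17. In KO untreated 1 to 4 the values were 307, 394, 611 and 508 CPM, and in KO CDDO-Me 1 to 4 they were 523, 554, 571 and 575 CPM, with a coefficient of variation of 4.25%, the smallest of any group among the 9 genes.

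**Figure D2:**
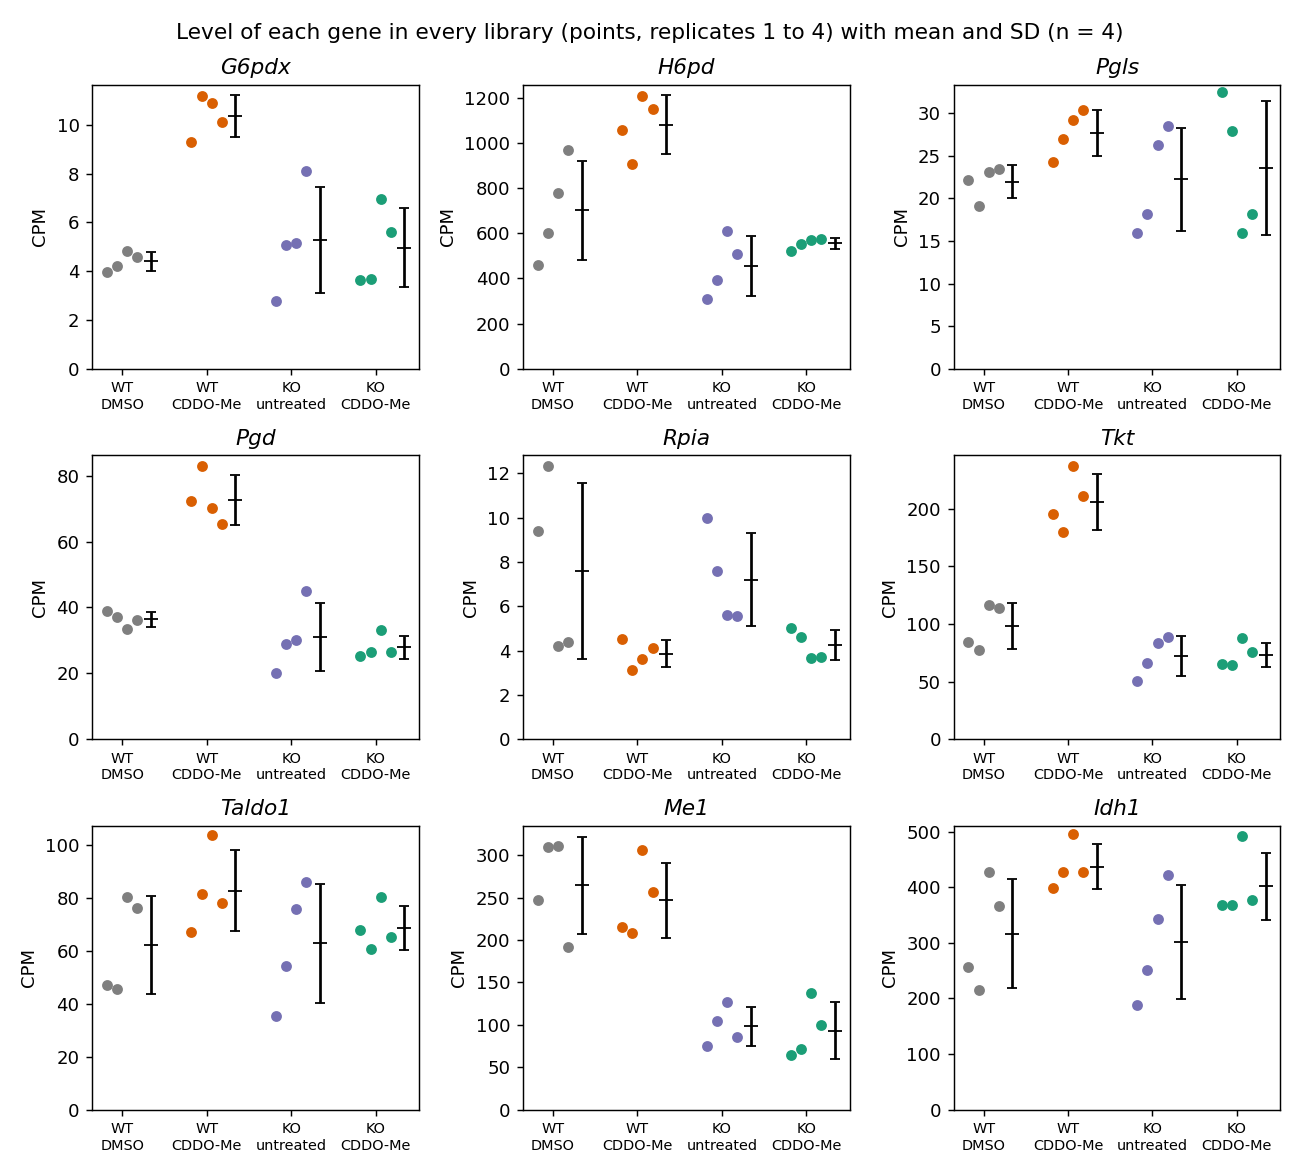
CPM of each of the 9 genes in each of the 16 libraries (points), by group, 1 panel per gene with its own axis starting at 0 and black marks for the group mean and SD (n = 4). Tkt, Pgd and G6pdx are highest in the 4 WT CDDO-Me libraries, and Me1 is low in all 8 KO libraries.

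In the reversible branch, Tkt encodes transketolase, which moves carbon pairs between sugar phosphates. WT DMSO 1 to 4 stood at 84.5, 77.6, 116 and 114 CPM, against 195, 180.2, 237 and 211 CPM for WT CDDO-Me 1 to 4. The groups did not overlap, as for 4.36% of all genes tested, and the rise was 2.1-fold (log2 1.07 ± 0.19, edgeR adjusted p = 0.0126). It passed in 15 of 16 fits that left out 1 library, the exception being without WT CDDO-Me 3 (adjusted p = 0.0630, the highest of the 16), and in 9 of 9 other settings. In KO untreated 1 to 4 Tkt was at 50.4, 66.2, 83.5 and 89.1 CPM, and in KO CDDO-Me 1 to 4 at 65.5, 64.8, 87.5 and 75.5 CPM. The lowest drug-treated wild-type library, at 180.2 CPM, stood above the highest KO library, at 89.1 CPM. KO CDDO-Me alone lay below WT CDDO-Me in 9.82% of all genes tested, and the share for both KO groups was not counted.

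Taldo1 encodes transaldolase, the partner of transketolase in the same branch. WT DMSO 1 to 4 were at 47.2, 45.7, 80.6 and 76.2 CPM, and WT CDDO-Me 1 to 4, at 67.4, 81.8, 104 and 78.1 CPM, overlapped with them. Its log2 change of 0.41 ± 0.25 did not pass (edgeR adjusted p = 0.426) and was 0.05 ± 0.17 without the intron-rich libraries. KO libraries ran from 35.6 to 86.1 CPM untreated and from 61.0 to 80.4 CPM with the drug. The 95% interval of the change in Taldo1 was -0.13 to 0.94. The Tkt to Taldo1 ratio of FPKM within libraries lay between 0.479 and 0.595 for WT DMSO, between 0.732 and 0.962 for WT CDDO-Me, between 0.344 and 0.471 for KO untreated, and between 0.319 and 0.384 for KO CDDO-Me. Both wild-type groups lay above both KO groups in this ratio, and WT CDDO-Me lay above WT DMSO.

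Rpia encodes ribose-5-phosphate isomerase, which makes the ribose used for nucleotides. WT DMSO 1 to 4 were at 9.41, 12.3, 4.22 and 4.41 CPM, and WT CDDO-Me 1 to 4 at 4.54, 3.13, 3.64 and 4.13 CPM. KO untreated 1 to 4 held 10.01, 7.58, 5.62 and 5.58 CPM and KO CDDO-Me 1 to 4 held 5.02, 4.6, 3.66 and 3.71 CPM. The high values are those of the intron-rich libraries, 7.58 to 12.3 CPM against 3.13 to 5.62 CPM in the other 12. The log2 fold change with the drug was -0.96 ± 0.32 in wild type (edgeR adjusted p = 0.188) and -0.76 ± 0.31 in KO (adjusted p = 0.272), and without the intron-rich libraries -0.18 ± 0.21 and -0.38 ± 0.20. Idh1 and Taldo1 divided the same libraries in the other direction, 189 to 257 against 343 to 495 CPM for Idh1 and 35.6 to 54.5 against 61.0 to 104 CPM for Taldo1. How many of all genes tested divided these libraries in either direction was not counted. The part of intronic RNA in these values was not tested.

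Outside the pathway, Me1 encodes cytosolic malic enzyme, which yields NADPH while turning malate into pyruvate and feeds fatty acid synthesis. Wild-type levels were 247, 309, 310.2 and 192 CPM with the vehicle (libraries 1 to 4) and 216, 209, 305 and 257 CPM with the drug, overlapping throughout. The drug's log2 fold change in wild type was -0.10 ± 0.24 (edgeR adjusted p = 0.849; 95% interval -0.62 to 0.42). KO untreated 1 to 4 held only 75.2, 105, 127 and 85.7 CPM, and KO CDDO-Me 1 to 4 held 64.9, 71.4, 138 and 99.3 CPM. All 8 KO libraries lay below all 8 wild-type libraries. Of all genes tested, 3.04% were lower in KO without overlap in the comparison without the drug, and 9.82% under it. The share below in all 8 was not counted.

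Idh1 encodes the cytosolic isocitrate dehydrogenase, another NADPH source. Wild-type libraries 1 to 4 measured 257, 214, 428 and 365 CPM with the vehicle and 398, 427, 495 and 428 CPM with the drug. KO untreated 1 to 4 held 189, 252, 343 and 421 CPM and KO CDDO-Me 1 to 4 held 368, 369, 492 and 377 CPM. The groups overlapped in wild type, and the change of log2 0.47 ± 0.25 did not pass (edgeR adjusted p = 0.365). It was 0.11 ± 0.17 without the intron-rich libraries. The Me1 to Idh1 ratio of FPKM within libraries was 0.378 to 1.04 in WT DMSO and 0.127 to 0.202 in KO CDDO-Me.

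In Nrf2-null liver none of the 9 genes passed the edgeR test for the drug, and 0.130% of all genes tested did. At an unadjusted p under 0.05 there was 1, Rpia, against 15.8% of all genes, and DESeq2 and limma on log2(FPKM + 1) called 0 as well. Rpia was also the only gene of the 9 whose KO groups did not overlap, all lower with the drug, as were 4.50% of all genes tested. The log2 fold changes of Tkt, Pgd and G6pdx were 0.02 ± 0.19, -0.15 ± 0.19 and -0.08 ± 0.27. Their 95% intervals were -0.38 to 0.42, -0.54 to 0.24 and -0.65 to 0.48. The wild-type estimates of the same genes lay above these intervals but carry their own error, and the test of the difference follows below. The remaining 5 ranged from -0.07 (Me1) to 0.42 (Idh1). The KO controls are labelled untreated, so drug and vehicle cannot be told apart in this comparison.

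The difference between the 2 drug responses, wild type minus KO, did not pass the edgeR test for any of the 9, and 0.130% of all genes passed. It was largest for G6pdx, at log2 1.32 ± 0.38 (95% interval 0.51 to 2.12, adjusted p = 0.251). For Pgd it was 1.15 ± 0.26 (0.59 to 1.70, adjusted p = 0.112) and for Tkt 1.05 ± 0.27 (0.48 to 1.62, adjusted p = 0.174). These 3 had an unadjusted p under 0.05, as did 8.53% of all genes tested. DESeq2 called Pgd (adjusted p = 0.00911) and Tkt (0.0255), and limma on log2(FPKM + 1) called Tkt (0.00358). Without KO untreated 1 edgeR called Pgd, at 1.30 ± 0.22 with an adjusted p of 0.0174. Adjusted p for Pgd and Tkt thus lay on either side of the threshold, depending on the fit, while the sign was positive in each. The other 6 genes were between -0.20 and 0.34. Within this contrast the KO response lacks a vehicle control.

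**Figure D3:**
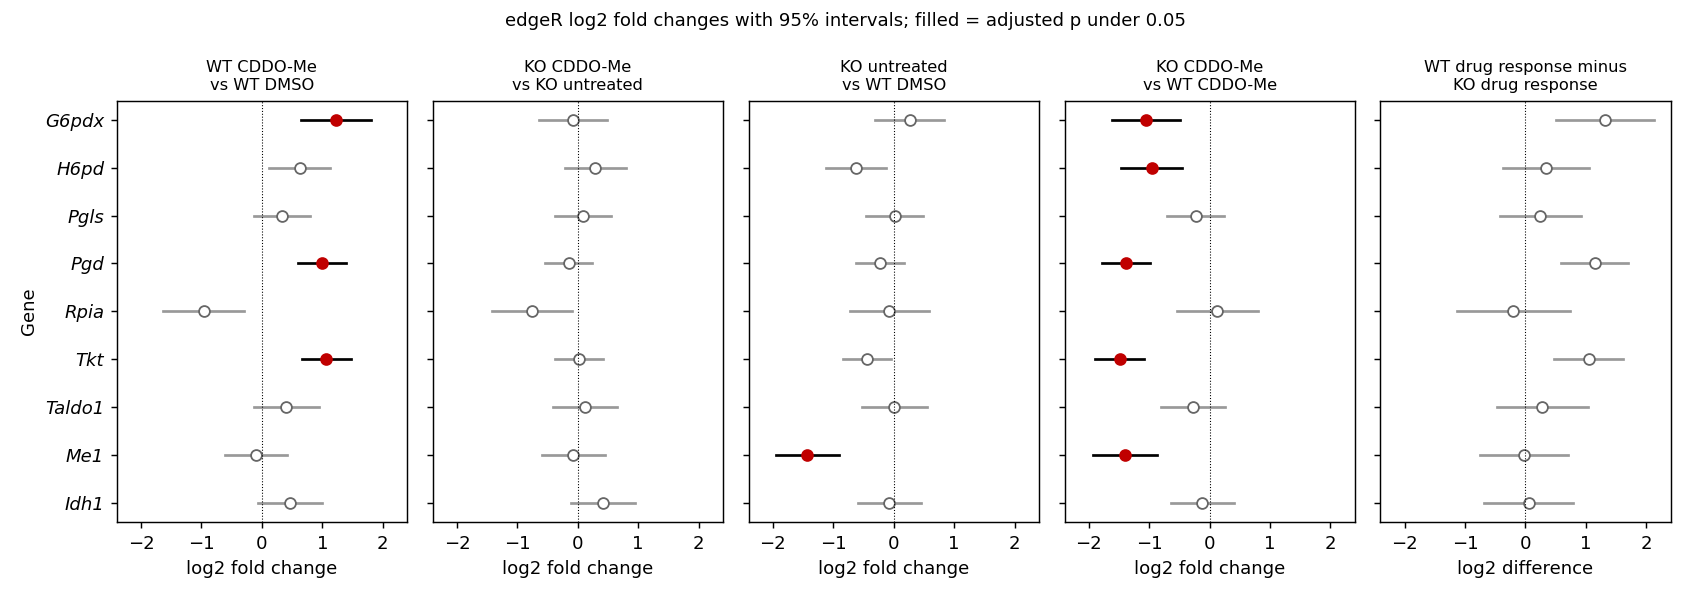
Log2 fold changes of the 9 genes in the 4 pairwise comparisons and the difference of the drug responses (points, with bars for the 95% interval of the edgeR fit). Tkt, Pgd and G6pdx lie to the right of 0 with the drug in wild type and near 0 in KO, and Me1 lies at -1.43 and -1.40 in the comparisons of genotype. Filled points passed at an adjusted p under 0.05.

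Between the genotypes without the drug, Me1 alone of the 9 passed, 2.69-fold lower in KO untreated than in WT DMSO (log2 -1.43 ± 0.25, edgeR adjusted p = 0.00903). Of all genes tested 0.969% fell. All KO untreated libraries were below all WT DMSO libraries, as were 3.04% of all genes tested. Without the library labelled KO untreated 1 it was -1.32 ± 0.27 (adjusted p = 0.0285), and without the 4 intron-rich libraries -1.26 ± 0.36, which no longer passed (adjusted p = 0.113). It also missed the threshold when only these groups entered the fit (-1.45, adjusted p = 0.0709). Gm38230, an unclassified transcript sharing 1159 bases with Me1 on 1 strand, was far lower at 4.32 CPM on average in WT DMSO and 1.5 in KO untreated. H6pd was at -0.62 ± 0.24 (adjusted p = 0.225) and Tkt at -0.44 ± 0.19 (0.297), and the other 6 had adjusted p of 0.671 to 0.992. Genotype and vehicle go together here and cannot be told apart.

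Under the drug, where both groups had the same injection, 5 of the 9 were lower in KO than in wild type, and 2.23% of all genes tested were. Tkt was 2.81-fold lower (log2 -1.49 ± 0.19, edgeR adjusted p = 0.000198), Pgd 2.60-fold lower (-1.38 ± 0.19, 0.000348) and Me1 2.64-fold lower (-1.40 ± 0.25, 0.00389). H6pd was 1.95-fold lower (-0.96 ± 0.24, 0.0367) and G6pdx 2.07-fold lower (-1.05 ± 0.27, 0.0404). For these 5, no KO CDDO-Me library reached any WT CDDO-Me library, as for 9.82% of all genes tested. Tkt, Pgd and Me1 passed in all 16 fits without 1 library and all 9 other settings. H6pd passed in 8 of the 16, with adjusted p up to 0.115, and G6pdx in 6 of the 16, with adjusted p up to 0.139. G6pdx also missed the threshold without WT DMSO 4 and WT CDDO-Me 1, at -1.10 ± 0.30 (adjusted p = 0.0605). In wild type, WT CDDO-Me 1 and WT DMSO 4 had a ribosomal RNA share as low as in KO. WT CDDO-Me 1 held Tkt at 195, Pgd at 72.1 and Me1 at 216 CPM, and WT DMSO 4 held them at 114, 36.3 and 192 CPM. The highest values over the KO libraries were 89.1, 45.0 and 138 CPM. The part of ribosomal RNA carry-over in the comparisons of genotype was not tested.

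Pgls (-0.23 ± 0.22), Taldo1 (-0.27 ± 0.25), Rpia (0.13 ± 0.31) and Idh1 (-0.12 ± 0.25) did not pass in that comparison, and their groups overlapped. The median of the 9 was -0.96 against -0.01 over all genes tested. For Tkt and Pgd the wild-type value with the drug is the high one, whereas for Me1 both KO groups are low whatever the treatment. The comparisons that share the WT CDDO-Me or KO CDDO-Me libraries are not independent of one another.

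**Figure D4:**
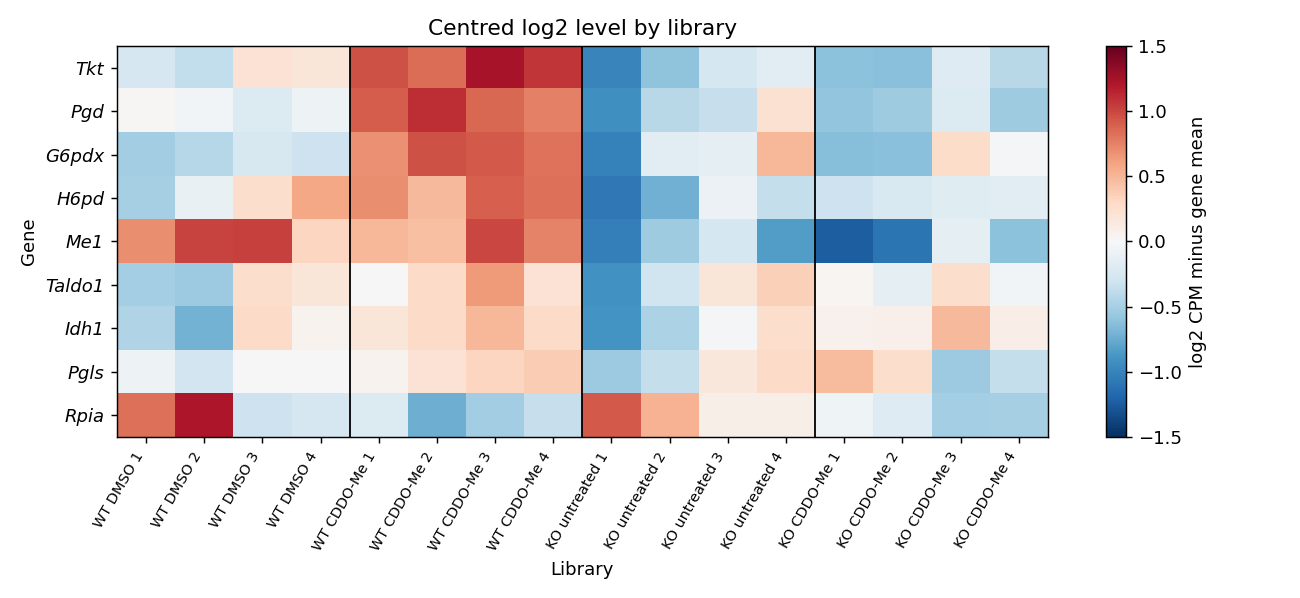
Log2 CPM of the 9 genes in the 16 libraries, each gene centred on its own mean (colour scale in log2 units). G6pdx, Pgd and Tkt are above their means in WT CDDO-Me 1 to 4, Me1 is below its mean in the 8 KO libraries, and Rpia is highest in WT DMSO 1 and 2 and KO untreated 1 and 2.

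Likeness of pattern was measured as the root mean square difference of centred log2 CPM over the 16 libraries, among 9835 genes with a mean of at least 5 CPM. Of pairs within the 9, Taldo1 and Idh1 were the closest at 0.137, followed by Pgd and Tkt at 0.244, H6pd and Tkt at 0.257, and G6pdx and Pgd at 0.279. Nearest to Tkt over all candidates were Acsm1 (0.179), Aldoa (0.183) and C2cd2 (0.184), and nearest to Pgd were Aldoa (0.229), Acsm1 (0.242) and C2cd2 (0.243). The genes nearest to G6pdx were Pctp (0.264), Pgd (0.279) and the stellate cell marker Dcn (0.285). For Me1 the closest were Pex11a at 0.325, Ugt1a6b at 0.385 and Slc35e3 at 0.385, against a median of 0.858 over all candidates. Its own root mean square deviation, 0.787, was the largest of the 9, and the distance grows with that deviation. Closest elsewhere were Slc25a5 for Taldo1 (0.10), Cenpb for Pgls (0.139), Lcp1 for H6pd (0.172) and Pan2 for Rpia (0.200). The libraries share depth and RNA composition, so these distances are a description of the 16 profiles.

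The other genes of the pathway were taken from a list. Of 15 further pentose phosphate genes, among them Rpe for the epimerase, the Prps genes for ribose activation and Tigar, 12 were tested. In wild type with the drug edgeR, DESeq2 and limma each called 0 of these 12, and edgeR gave 1 an unadjusted p under 0.05, against 15.3% of all genes tested. Rpe was at 21.0 ± 6.42 CPM in WT DMSO and 22.0 ± 4.68 CPM in WT CDDO-Me. The median log2 fold change of the 12 was 0.06, and edgeR called 0 of them in the other 4 comparisons too, with 0 to 2 at an unadjusted p under 0.05. Over all genes tested that share was 14.1% between the genotypes without the drug and 17.1% under it. DESeq2 called Tigar with the drug in KO and limma called Idnk between genotypes under the drug.

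A list of 15 other genes for NADPH supply held Idh2, Me2, Nnt, the folate enzymes of the Mthfd and Aldh1l families and others. It also held genes that do not make NADPH themselves, such as Nadk and Slc25a1. Of these 15, edgeR called 0 with the drug in wild type, with 4 at an unadjusted p under 0.05, against the same 15.3%. DESeq2 called 1, Mthfd1l, and limma 0. Me2, a mitochondrial malic enzyme, was named after its values were seen, and whether it makes NADPH in this liver was not measured. Me2 was higher in KO untreated than in WT DMSO, at 4.11 ± 0.315 against 2.23 ± 0.239 CPM (log2 0.88 ± 0.19, edgeR adjusted p = 0.0297). Of all genes tested 0.407% were higher there, and limma did not call Me2.

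A list of 12 glycolytic genes was drawn for steps that share intermediates with the pathway, though the step of Pklr does not. Of these 12, Aldoa, the aldolase of muscle and other tissues, rose with the drug in wild type, as did 0.555% of all genes tested. It went from 78.7 ± 11.8 to 145 ± 9.37 CPM (log2 0.89 ± 0.19, edgeR adjusted p = 0.0375), and under the drug it was lower in KO at 67.9 ± 5.20 CPM (-1.10 ± 0.19, adjusted p = 0.00269). The other 11 did not pass the edgeR test in either comparison, whereas DESeq2 also called Hk1 up and Pklr down with the drug in wild type. The median of the 12 in wild type was -0.03.

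Among the enzymes that spend NADPH, 5 of 23 tested rose with the drug in wild type and 0 fell by edgeR, where 0.555% of all genes tested rose. DESeq2 called 9 up and limma 8. The largest changes were in Cbr3, a carbonyl reductase, from 0.234 ± 0.0930 to 24.6 ± 8.12 CPM, and Nqo1, a quinone reductase, from 3.80 ± 0.442 to 38.3 ± 6.39 CPM. Cbr1 went from 39.2 ± 9.40 to 249 ± 37.1 CPM and Blvrb, biliverdin reductase B, from 52.7 ± 13.9 to 189.8 ± 20.9 CPM (edgeR adjusted p = 1.5e-06 to 0.000109 for the 4). Cbr3, Nqo1, Cbr1 and Blvrb also passed the test of the difference between the drug responses, as did 0.130% of all genes tested. Under the drug 7 of the 23 were lower in KO and 0 were higher, where 2.23% of all genes tested were lower. Nqo1 is an NRF2 target known in advance and this list holds several such targets, so its direction is not independent evidence.

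Of 12 lipogenic genes, whose pathway spends NADPH on fatty acid synthesis, 3 fell with the drug in wild type and 0 rose by edgeR, where 0.173% of all genes tested fell. DESeq2 called 7 lower and limma 2. Fatty acid synthase Fasn went from 1659 ± 598 to 554 ± 154 CPM, Acacb, an acetyl-CoA carboxylase, from 337 ± 58.0 to 116 ± 21.4 CPM, and Thrsp, a lipogenic regulator, from 401 ± 99.5 to 82.8 ± 25.7 CPM (edgeR adjusted p = 0.0126 to 0.0373). All 12 had a negative estimate and their median log2 fold change was -1.21, while Me1 was at -0.10. Under the drug 4 of the 12 were higher in KO than in wild type (Srebf1, Thrsp, Acly and Acacb) by edgeR, the opposite direction to Me1, and 1.06% of all genes tested were. DESeq2 called 7 higher there and limma 4.

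**Figure D5:**
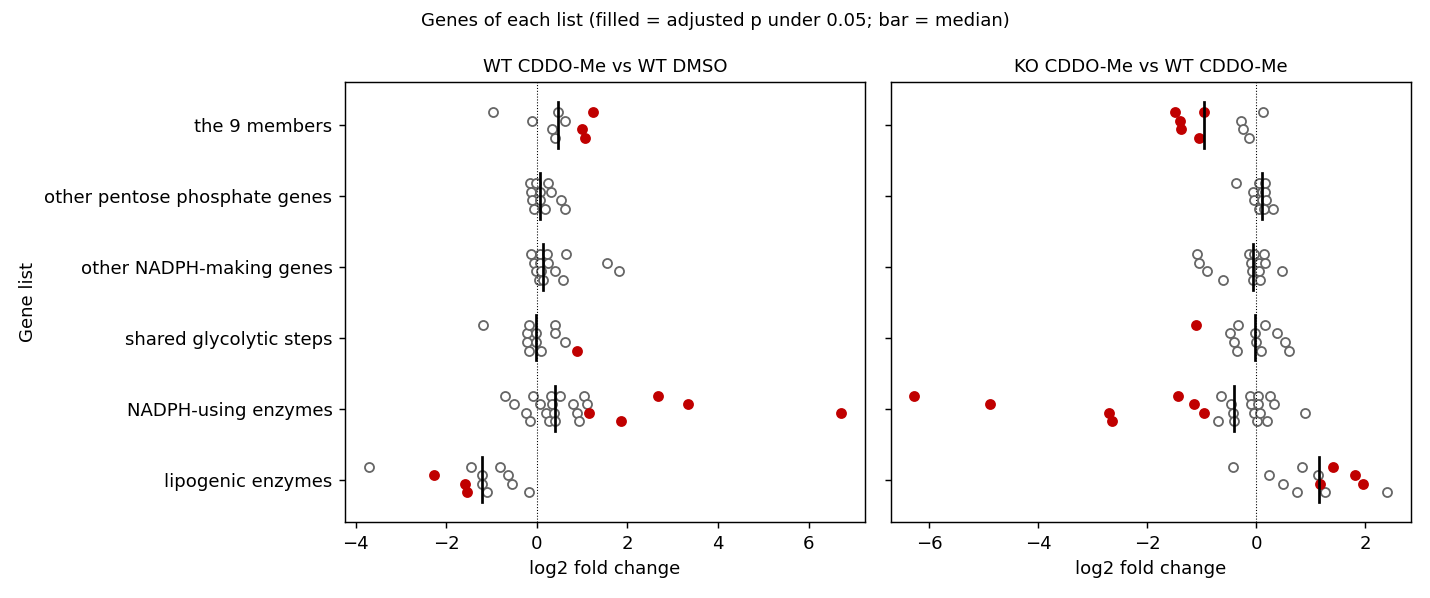
Log2 fold changes of the 9 genes and of the 5 related lists with the drug in wild type and between genotypes under the drug (points are genes, bars are medians, filled points passed the edgeR test). The NADPH-using and lipogenic lists spread widest, and the other pentose phosphate genes lie between -0.37 and 0.62.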

How the data were processed

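RNA was sequenced from 16 mouse liver libraries, after removal of ribosomal RNA, as directional paired reads of 150 bases. The submitters' processing notes list TopHat2 (2.1.0), HTSeq (0.6.1p1), DESeq2, CASAVA (1.8.2), cutadapt (1.2.1) and GRCm38.p5, without saying how each was applied. The authors deposited whole-number read counts per gene and, per the file headers, FPKM, which equal the counts divided by 1 length per gene and the library total within 8.7e-07. No source used here gives the strand setting of the counting.

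CPM are counts scaled to a common TMM library size. All 16 libraries were fitted together with edgeR 4.0.16 (quasi-likelihood, TMM, filterByExpr) in R 4.3.3, with 5 contrasts and Benjamini-Hochberg adjustment over 16206 genes, called at an adjusted p under 0.05. All 9 genes passed the filter on low counts. FPKM served for levels between genes and for limma 3.58.1, and DESeq2 1.42.0 was an alternative. Gene positions come from GENCODE M21. The fitting code was tested on simulated data. No 2 libraries of the same group were duplicates (lowest chi-square per degree of freedom 15.1). Pairs from different groups were not checked in this way.

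The members and lists were chosen with earlier results of these data known. Named besides the 9 genes are up to 4 called genes per list with the largest changes, Nfe2l2, Nqo1 and Gclc as references, and up to 3 of the nearest profiles per gene, those of Idh1 not being reported here. Genes that overlap a member, and list genes called by 1 tool alone, were named after their values were seen.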

Additional observations from a re-analysis of the deposited data

Results flagged for a closer look

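In a group of 4 libraries, 1 library can lie far from the other 3. By Dixon's criterion, which chance meets in about 1 in 20 groups, this held for 2 of 48 groups tested. Idh1 stood at 492.1 CPM in KO CDDO-Me 3 and at 368.5 to 377.4 CPM in the other 3 libraries of that group. Pgd stood at 33.2 CPM in KO CDDO-Me 3 and at 25.4 to 26.6 CPM in the others. Both are the same library, and both are values of genes that did not pass with the drug in KO liver.

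The drug responses of wild-type and KO liver differed by the edgeR test for 6 of the reference and NADPH-using genes, and for 0.130% of all genes tested. The log2 difference was 7.0 for Cbr3 (adjusted p = 0.000198), 2.58 for Nqo1 (0.0183), 2.48 for Cbr1 (0.00422), 2.15 for Srxn1 (0.0161), 2.07 for Gclc (0.00241) and 1.76 for Blvrb (0.0140). Srxn1, sulfiredoxin, was named after its values were seen. Gclc makes the catalytic subunit for glutathione synthesis. All 6 were higher with the drug in wild type.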

How the results depend on the processing

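Each result was recomputed with DESeq2, with RLE scaling, with no filter on low counts, with limma on log2(FPKM + 1) and log2(FPKM + 0.1), with only the groups compared, with a replicate block, without 2 sets of libraries and without each library in turn. Of the log2 fold changes, 996 kept direction and call, 45 lost the call, 7 gained it and 68 changed sign, none of these a called value. FPKM scaling shifted the median of all genes by 0.10 between genotypes without the drug at log2(FPKM + 1), and by -0.12, -0.17, 0.17 and 0.12 in the 4 pairwise comparisons at log2(FPKM + 0.1). Depth limits G6pdx and Rpia most, with counts down to 42.

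With the drug in wild type, 3 genes were called. limma called 1 with either pseudocount and edgeR 1 when WT DMSO 4 and WT CDDO-Me 1 were left out, in each case Tkt. The number was 0 to 3 without 1 library, 0 without WT CDDO-Me 3 and 1 without WT CDDO-Me 2. Between the genotypes without the drug, the 1 call (Me1) became 0 with only the groups compared and 0 without the 4 intron-rich libraries. Under the drug, the 5 calls became 3 with no filter on low counts and 3 to 5 without 1 library, the 3 being Pgd, Tkt and Me1. They were 3 without any 1 of the 4 WT CDDO-Me libraries and without KO CDDO-Me 1, 2 or 4. For the difference of the drug responses, 0 calls became 2 with DESeq2, 1 with limma at either pseudocount, 1 without the intron-rich libraries and 0 to 1 without 1 library, the 1 being Pgd without KO untreated 1.

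Replicate numbers are shared between groups, and no label says that they pair libraries. Of 24 same-numbered pairs, 13 had correlated deviations over 0.1 (range -0.45 to 0.48). Their median correlation was 0.16, against -0.06 for the other pairs of libraries from different groups. Whether the numbers mark a shared step was not tested. With the replicate block the difference of the drug responses had 1 call, Tkt (edgeR adjusted p = 0.0222), and the other 4 comparisons had 3, 0, 1 and 5 calls, as without the block.

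The sign changes are of values near 0. With the drug in KO, Pgls, Taldo1 and Tkt were -0.11, -0.011 and -0.15 in limma on log2(FPKM + 1), -0.14, -0.011 and -0.16 on log2(FPKM + 0.1), and -0.20, -0.22 and -0.21 without the intron-rich libraries. Without 1 library the ranges were -0.11 to 0.24 for Pgls, -0.077 to 0.32 for Taldo1, -0.12 to 0.14 for Tkt, -0.30 to 0.20 for G6pdx, -0.32 to 0.086 for Pgd and -0.32 to 0.079 for Me1. Between the genotypes without the drug, Taldo1 was -0.0023 with DESeq2, -0.0023 with RLE scaling and -0.012 with only the groups compared, and Pgls was -0.0087 in the last. Rpia was 0.079 and 0.19 in limma and 0.35 without the intron-rich libraries, where Pgd was 0.082. Idh1 was 0.10 in both limma fits and 0.0075 without WT DMSO 4 and WT CDDO-Me 1. Without 1 library the ranges were -0.17 to 0.21 for Taldo1, -0.13 to 0.14 for Pgls, -0.28 to 0.27 for Rpia, -0.28 to 0.12 for Idh1 and -0.021 to 0.47 for G6pdx. For the difference of the drug responses, Me1 was 0.060 and 0.070 in limma and 0.12 without the intron-rich libraries, where Rpia was 0.20. Without 1 library the ranges were -0.18 to 0.22 for Me1, -0.40 to 0.14 for Rpia and -0.15 to 0.23 for Idh1. The cause of these changes was not tested.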
